A study of Rattus norvegicus with 12 samples.

Results

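The rapamycin response of ELT3-245, a rat cell line that had lost its sensitivity to the drug, was read from 6 expression arrays: 3 of cells treated with 20 nM rapamycin for 24 h and 3 of cells given only the solvent, dimethyl sulfoxide (DMSO). These are all the ELT3-245 arrays among the 12 arrays of the series, chosen by cell line and treatment and not by any measured value. The other 6 arrays hold the parental line, ELT3, under the same treatments, and are used here only to show where the response of ELT3-245 differed. The comparison asks which transcripts still changed under rapamycin in cells selected as resistant to it.

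ELT3 came from an Eker rat with uterine leiomyoma and lacks a functional Tsc2 gene, a defect that ELT3-245 shares. ELT3-245 was grown from a single ELT3 xenograft tumor that had kept growing under rapamycin in a CB17/SCID mouse, so that it stands for 1 line from 1 tumor. The array triplicates were not repeated on further arrays. For a few genes the paper also reports RT-qPCR from independent experiments. There rapamycin increased Myc, Ocln and Axin2 in ELT3-245. The labels state a final rapamycin concentration of 20 nM, but adding 10 µl of the 20 mM stock to 10 ml, as they also say, would give 20 µM, so that the dose remains uncertain. The p-values measure only the spread between cultures within groups of 3. That spread was pooled over the 4 groups of both lines and drawn towards the spread of all probe sets.

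Tuberin, the product of Tsc2, forms a complex with hamartin that switches off Rheb, the small GTPase that activates the kinase complex mTORC1. Without it mTORC1 stays active, and active mTORC1 drives lipid and sterol synthesis through the SREBP factors, glycolysis through HIF-1α, amino acid synthesis through ATF4, and the making of ribosomes, while it restrains autophagy and signaling from growth factor receptors. Rapamycin binds the small protein FKBP12, and this pair docks on mTOR and inhibits mTORC1, for some substrates only in part.

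Each value is a log2 signal for a probe set (the probes that read a transcript), so that a change of 1 is a doubling. Array medians in ELT3-245 lay between 6.73 and 6.79. Arrays of the same ELT3-245 treatment correlated at 0.9946 to 0.9966 over all probe sets, and arrays of different treatments at 0.9882 to 0.9902. Treatment was the main axis of variation, since the first principal component of the 6 arrays held 57.4% of the variance and placed the DMSO arrays between -35.5 and -29.58 and the rapamycin arrays between 32.45 and 32.57. The second component, 14.8% of the variance, set DMSO replicate 3 and rapamycin replicate 3 (-27.21 and -16.91) apart from the other 4 arrays (4.17 to 19.78). The labels give neither a batch nor a scan date. Because whole cultures were read, fewer cells that express a gene and less RNA per cell cannot be told apart.

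ELT3-245 cells responded widely to rapamycin. A probe set was called changed where limma gave an adjusted p under 0.05 (Benjamini-Hochberg, 23188 probe sets tested) and the change reached 1.5-fold in either direction. By this rule 1310 probe sets rose, which is 5.65% of all, and 1155 fell, 4.98%. Of these, 449 rose and 340 fell at least 2-fold, and 51 rose and 33 fell at least 4-fold. Among the 15041 genes with a symbol, 929 rose (6.18%) and 897 fell (5.96%), while the median change over all these genes was -0.03 on the log2 scale. These shares are the background against which the counts for groups of genes are given. Probe sets without a gene symbol made up 380 of those that rose and 258 of those that fell.

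**Figure D1:**
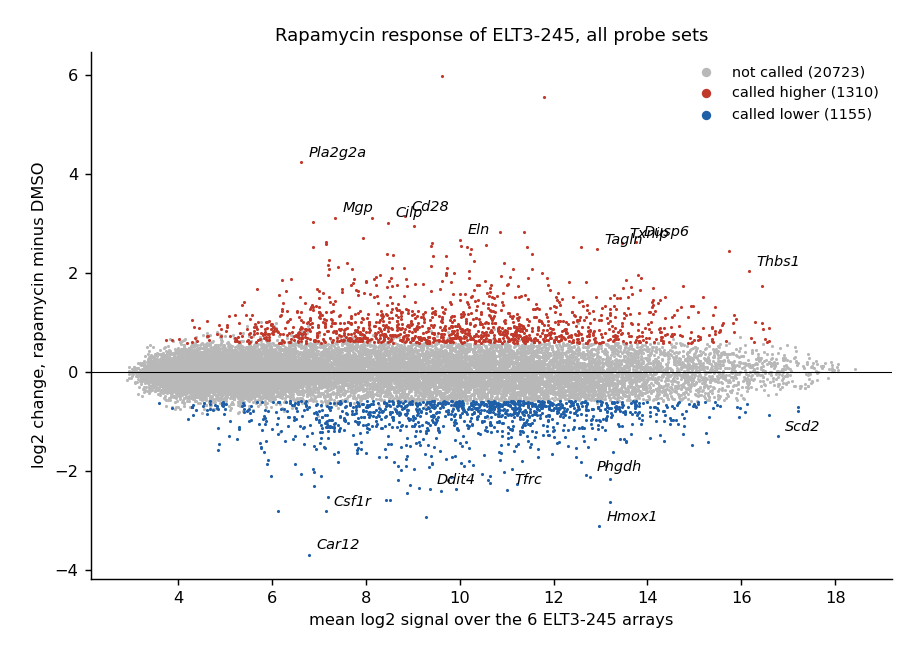
Log2 change under rapamycin in ELT3-245 (vertical axis) against the mean log2 signal over the 6 arrays (horizontal axis), 1 point per probe set, with the 1310 called higher in red and the 1155 called lower in blue. Changes ran both ways at all signal levels above the dimmest, and the highest points are 2 probe sets without a gene symbol.

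Among bright genes (mean signal at or above the median of all probe sets), the strongest riser was Cd28, best known as a costimulatory receptor of T cells. It read 7.54, 7.26 and 6.96 in DMSO and 10.49, 10.23 and 10.46 in rapamycin, a change of 3.14 (standard error 0.15, adjusted p = 3.08e-07). Mgp, which encodes matrix Gla protein, an inhibitor of calcification, rose from 5.93, 5.84 and 5.60 to 8.87, 8.88 and 8.97 (log2 change 3.12). For these genes, as for every called gene named below, no rapamycin array overlapped a DMSO array. The calls were made on these same arrays, so this lack of overlap is no separate support. Of the 15 strongest bright risers, those encoding secreted or matrix proteins were Mgp, Cilp (3.01), Ecm1 (2.82), Eln, the gene of elastin (2.67), Ccn5 (2.61), Ntn4 (2.59), the collagen chain gene Col8a1 (2.56) and Adamtsl4 (2.55). The others included the kinase gene Pim1 (2.82), the sialyltransferase gene St6gal1 (3.02), Tcp11l2 (2.94) and Olah (2.69), which encodes a fatty acid thioesterase. Because the mean includes the arrays where a gene is high, a bright gene can be dim in 1 treatment. In ELT3-245 DMSO, Mgp, St6gal1 (4.92 to 5.61) and Ntn4 (5.59 to 5.99) lay below the array medians, so the sizes of their rises are uncertain.

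The strongest bright faller was Hmox1, which encodes heme oxygenase 1, an enzyme that degrades heme and releases its iron. Its signal was 14.57, 14.61 and 14.41 in DMSO and 11.63, 11.52 and 11.10 in rapamycin, a change of -3.11 (standard error 0.15, adjusted p = 3.08e-07), or 8.66-fold lower. Tfrc, the transferrin receptor that takes up iron, fell by 2.38, from between 12.11 and 12.32 to between 9.73 and 9.93. Further strong fallers were Uap1l1 (-2.93), the spermidine/spermine acetyltransferase-like gene Sat2 (-2.45), Cryl1 (-2.35), the alanine transaminase gene Gpt2 (-2.28) and Gnpda1 (-2.26), which encodes a glucosamine-6-phosphate deaminase. Csf1r, the receptor of macrophage colony-stimulating factor, fell by 2.81, Myo7a, an unconventional myosin, by 2.53, and the mitochondrial nucleotide carrier gene Slc25a33 by 2.18. In rapamycin, Csf1r (5.59 to 5.94) and Myo7a (5.78 to 5.99) lay below the array medians, so the sizes of their falls are uncertain. Ift27, a gene of intraflagellar transport, fell by 2.37, with rapamycin replicate 3 (8.23) lower than the other rapamycin arrays (9.01 and 8.97).

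The largest changes of all belonged to 2 probe sets for which the annotation gave no gene symbol, and which were singled out after their values were seen. Probe set TC0500004052.rn.2 on chromosome 5 read between 6.39 and 6.83 in DMSO and 12.88, 12.70 and 12.29 in rapamycin, a change of 5.98 (standard error 0.21, adjusted p = 5.31e-08). Probe set TC1000000671.rn.2 on chromosome 10 went from 8.80, 9.04 and 9.22 to 14.80, 14.73 and 14.19, a change of 5.55 (standard error 0.28, adjusted p = 3.44e-07). In ELT3 the same probe sets changed by 0.25 and 0.15, and the differences between the lines, 5.73 and 5.41, had adjusted p-values of 5.67e-06 and 5.49e-05. The ELT3 arrays read 3.96 to 4.79 for TC0500004052.rn.2, below the array medians, and 6.24 to 7.30 for TC1000000671.rn.2, around them. Of the unnamed probe sets that fell, TC0300000259.rn.2 (-2.63) and TC0300004616.rn.2 (-2.58), both on chromosome 3, had the largest changes, and their responses differed from those in ELT3 by -1.43 and -2.88. For TC0300004616.rn.2 the ELT3 arrays lay at 6.45 to 7.30, near the level that ELT3-245 reached in rapamycin (7.01 to 7.25). The size of that difference is therefore uncertain.

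Of 43 measured genes of mTORC1, mTORC2 and their regulators, 4 rose and 11 fell, and the median change was -0.16. Mtor, the kinase, read 10.06, 10.03 and 10.13 in DMSO and 10.36, 10.67 and 10.56 in rapamycin, a change of 0.45 that stayed under the fold threshold. Rptor, the mTORC1 scaffold raptor, changed by 0.24 (adjusted p = 0.406), and Fkbp1a, the gene of FKBP12, by -0.14 (adjusted p = 0.567). Akt1s1, which encodes the mTORC1 subunit PRAS40, fell from 7.72 or more to 7.30, 7.25 and 7.02 (-0.71, adjusted p = 0.00561). Rps6kb1, the gene of the S6 kinase that mTORC1 activates, changed by 0.05, and Eif4ebp1, the translation repressor that mTORC1 phosphorylates, by -0.44, neither of them called. The probe set of Tsc2 gave signals of 9.16 to 9.81 in DMSO and 9.80 to 10.19 in rapamycin (change 0.42, adjusted p = 0.167), and Tsc1 changed by -0.08; which part of the disrupted Tsc2 transcript the probe set reads is not known here.

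Among the 11 pathway genes that fell were several of the nutrient-sensing machinery on the lysosome. Flcn, which encodes folliculin, a GTPase-activating protein for the Rag GTPases, read 10.52, 10.50 and 10.73 in DMSO and 9.15, 8.66 and 8.67 in rapamycin (log2 change -1.76, adjusted p = 8.43e-05). Its partner Fnip2 fell by 1.72, the Rag GTPase gene Rragd by 1.51, and Sesn2, a leucine sensor that restrains mTORC1, by 1.19. Rragd was dim, at 6.31 to 6.63 in DMSO and 4.74 to 5.21 in rapamycin, below the array medians, so the size of its fall is uncertain. On the side of the risers, Pdcd4, a repressor of translation initiation whose protein is degraded on S6 kinase signaling, went from 13.03, 12.98 and 12.76 to 14.75, 14.87 and 14.81 (log2 change 1.89, adjusted p = 4.82e-07). Sgk1, a kinase that mTORC2 activates, rose by 1.02. The Rheb-like GTPase gene Rhebl1 also rose (0.89, adjusted p = 0.0214) but lost its call without DMSO replicate 1 or 2 or rapamycin replicate 1 or 3, with a change between 0.66 and 1.12 when single arrays were left out.

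Many transcripts of sterol and fatty acid synthesis were lower. Of 21 measured genes of sterol synthesis and uptake, 14 fell against a background of 5.96%, and all 21 changes were below 0 (median -0.91). Of 20 genes of fatty acid synthesis, 10 fell (median -0.63). The lipogenic factor gene Srebf1 read 9.74, 9.12 and 9.64 in DMSO and 7.81, 7.98 and 8.16 in rapamycin, a change of -1.52 (standard error 0.17, adjusted p = 6.83e-05), whereas Srebf2, the gene of its sterol-regulating relative, changed by -0.09 (adjusted p = 0.709). Every rapamycin array thus lay below every DMSO array for Srebf1, and the ranges of Srebf2 overlapped. Mvd, a decarboxylase of the mevalonate pathway, went from 8.73, 8.59 and 8.55 to 6.87, 7.15 and 6.95 (-1.64, adjusted p = 1.36e-05). Acat2, which starts the pathway by joining acetyl-CoA units, fell 2.82-fold, and on the log2 scale Hsd17b7 fell by 1.31, the cholesterol transporter gene Stard4 by 1.19, squalene epoxidase (Sqle) by 1.08 and Tm7sf2, a sterol reductase, by 1.07.

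Among fatty acid genes, the desaturase gene Scd read 10.19, 10.41 and 10.14 in DMSO and 8.59, 8.42 and 8.62 in rapamycin (-1.70, adjusted p = 2.51e-06), and its brighter relative Scd2 went from between 17.40 and 17.45 to between 16.02 and 16.27 (-1.29). Acss2, which makes acetyl-CoA from acetate, fell 2.83-fold, and on the log2 scale the acyl-CoA synthetase gene Acsl3 fell by 1.05 and the elongase gene Elovl6 by 0.93. These genes were named because they were called, so the gap between their groups is no separate support.

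The promoters of these genes are given for the letters they hold, from the RefSeq promoter table on build GRCr8, which spans 250 bases before to 50 bases after each gene start. Promoters were found for 12 of the 14 sterol genes and 8 of the 10 fatty acid genes that fell. A CCAAT box (CCAAT on either strand), the site of the factor NF-Y, stood in 9 of the 12 and in 6 of the 8, against 37.5% of all 33469 promoters in the table, and the sterol response element TCACNCCAC, held by 1.12% of all promoters, matched in neither set. The box also stood in 7 of 10 promoters of the tRNA synthetases, 5 of 7 of the V-ATPase subunits, 5 of 8 of the mTOR pathway genes and 6 of 13 of the ATF4 targets that fell. The stretches below run 5′ to 3′ on the strand of the gene and end at or before its start, with the CCAAT box in capitals (written ATTGG where it lies on the opposite strand). They are shown for 5 genes that fell and hold the box: Mvd at chr19:67414975-67415059 (minus strand), Hsd17b7 at chr13:84722755-84722980 (minus strand), Tm7sf2 at chr1:212789576-212789680 (minus strand), Srebf1 at chr10:45529279-45529383 (minus strand) and Scd2 at chr1:253118230-253118376 (plus strand). A match to letters does not show that a factor binds there.
Mvd: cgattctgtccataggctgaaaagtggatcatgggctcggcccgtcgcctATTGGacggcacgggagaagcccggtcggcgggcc
Hsd17b7: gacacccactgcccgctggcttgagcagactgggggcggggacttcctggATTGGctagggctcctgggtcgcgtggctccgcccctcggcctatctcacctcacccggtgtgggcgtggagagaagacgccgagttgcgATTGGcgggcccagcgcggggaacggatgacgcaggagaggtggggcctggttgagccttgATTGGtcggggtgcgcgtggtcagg
Tm7sf2: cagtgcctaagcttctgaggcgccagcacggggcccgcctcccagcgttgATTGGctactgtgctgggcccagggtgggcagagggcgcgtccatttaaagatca
Srebf1: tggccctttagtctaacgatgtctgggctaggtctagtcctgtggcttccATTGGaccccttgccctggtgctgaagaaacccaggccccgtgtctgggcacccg
Scd2: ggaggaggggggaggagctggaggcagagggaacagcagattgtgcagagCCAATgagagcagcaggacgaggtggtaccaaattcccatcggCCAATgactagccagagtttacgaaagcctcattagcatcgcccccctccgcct

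**Figure D2:**
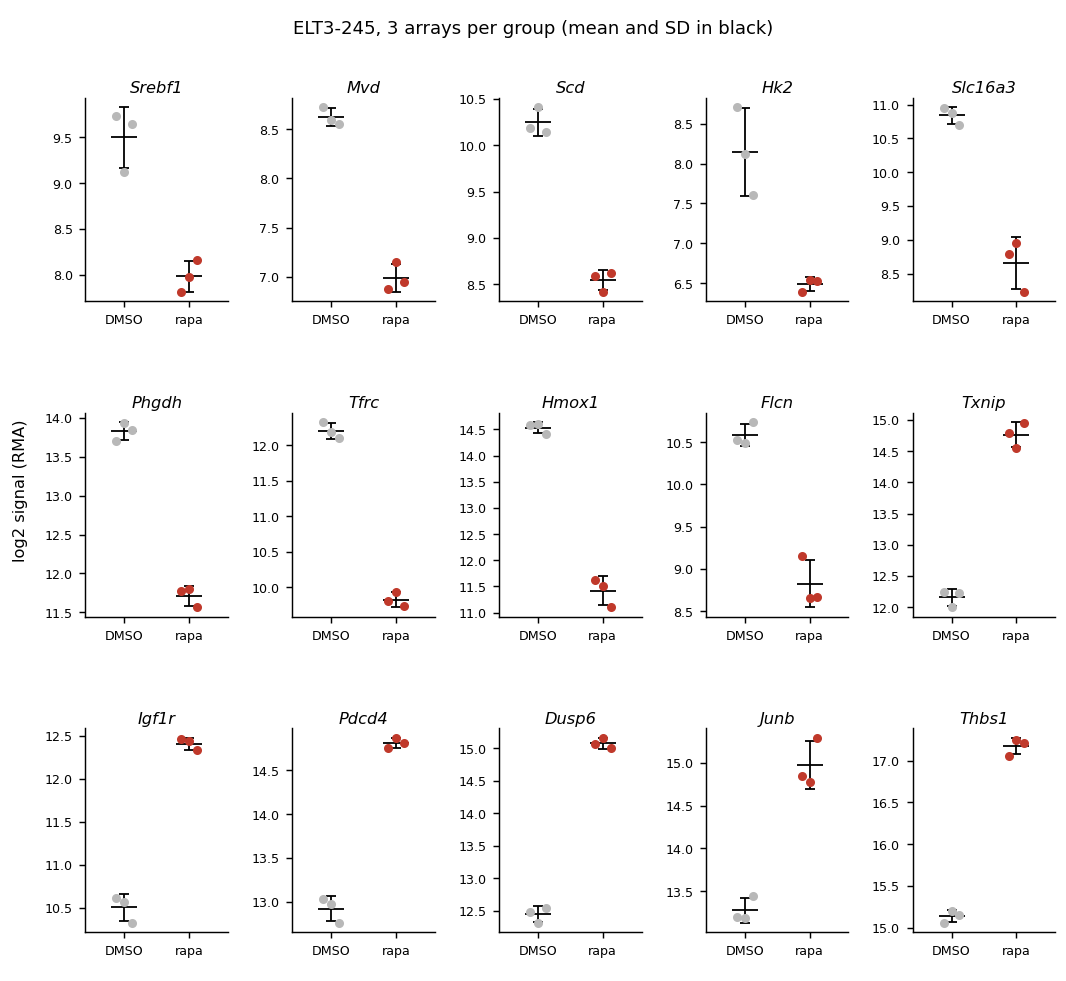
Log2 signal (vertical axes, each on its own range) of 15 genes in the 3 DMSO and the 3 rapamycin arrays of ELT3-245; dots are arrays, black lines the mean and SD. Srebf1, Mvd, Scd, Hk2, Slc16a3, Phgdh, Tfrc, Hmox1 and Flcn fell and Txnip, Igf1r, Pdcd4, Dusp6, Junb and Thbs1 rose, with no overlap between the groups. All 15 are called genes, so the lack of overlap is no separate support.

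Of 33 measured genes of glycolysis and targets of HIF-1α, 17 were lower and 2 higher, with a median of -0.60. Hif1a itself read 13.69, 13.59 and 13.52 in DMSO and 12.54, 12.54 and 12.80 in rapamycin (-0.97, adjusted p = 6.97e-05). Ddit4, a stress-induced inhibitor of mTORC1, fell from 10.65, 10.51 and 10.48 to 8.30, 8.11 and 8.12 (-2.38, adjusted p = 3.36e-06). Slc16a3, which exports lactate, went from 10.95, 10.88 and 10.71 to 8.79, 8.95 and 8.23 (-2.19). Hexokinase 2 (Hk2) varied more in DMSO, at 8.71, 8.12 and 7.61, yet all rapamycin arrays lay lower, at 6.39, 6.54 and 6.53 (-1.66, adjusted p = 0.00191). These rapamycin signals of Hk2 were below the array medians, so the size of its fall is uncertain. Further fallers were the enolase gene Eno2 (-1.84), the liver-type phosphofructokinase gene Pfkl (-1.29) and the mitophagy receptor gene Bnip3 (-1.21). The exceptions were the glucose transporter gene Slc2a3, which rose from between 9.75 and 9.86 to 10.70 or more (1.09), and Adm, the gene of the vasodilator adrenomedullin (0.77). Of the 5 measured genes of the pentose phosphate pathway only Tkt, the gene of transketolase, was called (-0.76).

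Of 31 ATF4 targets, 14 fell (median -0.45), and of 19 aminoacyl-tRNA synthetases, which load amino acids on tRNAs, 11 fell (median -0.69). Phgdh, the enzyme that commits glucose carbon to serine, read 13.71, 13.94 and 13.84 in DMSO and 11.77, 11.80 and 11.56 in rapamycin (-2.12, adjusted p = 7.12e-07). The next enzymes of that pathway fell with it, Psph by 2.07, Psat1 by 1.72 and the mitochondrial Shmt2, which turns serine into glycine, by 1.42. Asparagine synthetase (Asns) went from 15.40, 15.22 and 15.52 to 14.03, 14.05 and 14.27 (-1.26). For Atf4 itself the change was -0.31 (adjusted p = 0.0546), which was not called, and for Atf3, a related factor, -0.97 (adjusted p = 0.00088).

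Of the synthetases, Yars1 (tyrosine) went from 13.51, 13.54 and 13.64 to 12.23, 12.34 and 12.07 (-1.35), and Nars1 (asparagine) fell by 1.27, Cars1 (cysteine) by 1.19, Aars1 (alanine) also fell, 2.15-fold, and Vars1 (valine) and Mars1 (methionine) fell by 0.89 each. In purine and pyrimidine synthesis, 2 of 17 genes fell (median -0.32). They were Ppat, which opens the purine pathway (-0.90), and Atic, which closes it (-0.61), whose call ended without DMSO replicate 3 (-0.57) or rapamycin replicate 1. The C/EBP-ATF element TGATGNAAT, found in 1.09% of all promoters, matched in 1 of the 10 promoters available for the 11 synthetases that fell and in 0 of 13 for the ATF4 targets. That promoter is Aars1 at chr19:55908319-55908427 (plus strand), shown with the element in capitals as it reads on the opposite strand.
Aars1: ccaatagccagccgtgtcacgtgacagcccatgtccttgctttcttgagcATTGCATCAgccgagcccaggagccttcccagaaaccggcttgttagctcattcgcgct

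Transcripts of the proton pump of the lysosome were lower. Of 17 measured V-ATPase subunit genes, whose products acidify lysosomes, 10 fell and the median was -0.68. Atp6v1b2 went from 13.19, 13.22 and 13.36 in DMSO to 11.76, 11.78 and 11.59 in rapamycin (-1.54, adjusted p = 5.03e-06). Atp6v1d fell by 1.36, Atp6v0b by 1.05 and Atp6v1g1 by 1.04, and the accessory subunit Atp6ap2 fell 2-fold, so that subunits of the V1 and V0 sectors were among the fallers. Among 38 other lysosomal enzymes and membrane proteins, 8 fell, 3 rose, close to the 6.18% of all genes that rose, and 27 were not called (median -0.16). Ctns, the cystine exporter, fell from 11.61, 11.58 and 11.76 to 9.83, 9.92 and 10.35 (-1.62), Npc1, the cholesterol exporter, by 1.54 and the chloride exchanger gene Clcn7 by 1.01, while the protease gene Ctsf rose by 1.74, the galactosidase gene Glb1 by 0.94 and the iduronidase gene Idua by 0.79.

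The CLEAR element TCACGTGA, through which the factors TFEB and TFE3 act on lysosomal genes and which 0.777% of all promoters held, matched in 1 of the 7 promoters available for the 8 lysosomal genes that fell and in none of 7 for the V-ATPase genes. It stood in the promoter of Pip4p1, a lysosomal phosphatase gene that fell by 0.90, at chr15:26624247-26624326 (minus strand), with the element in capitals.
Pip4p1: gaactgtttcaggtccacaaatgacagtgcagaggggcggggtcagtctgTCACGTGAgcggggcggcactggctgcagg
The core of the element, the E-box CACGTG, which 6.42% of all promoters held, matched in the promoters of the 3 lysosomal risers, Ctsf, Glb1 and Idua, and in 2 of the 7 available for the fallers. Among other fallers the E-box matched in 4 of 10 tRNA synthetase, 3 of 8 mTOR pathway, 2 of 12 sterol and 1 of 13 ATF4 promoters. It matched in 0 of 7 V-ATPase and 0 of 8 fatty acid promoters. Of the FoxO targets it matched in 2 of 4 fallers and 2 of 6 risers. The CLEAR element also stood in 1 of 10 synthetase promoters (Aars1) and in 1 of 4 of the FoxO targets that fell (Klf15). Tfeb, Tfe3 and Mitf, the genes of these factors, changed by 0.01, -0.19 and 0.49 and were not called. Gpnmb, a glycoprotein gene that these factors control, read 12.99, 12.87 and 12.98 in DMSO and 12.02, 12.08 and 12.09 in rapamycin (-0.88, adjusted p = 0.000115).

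In the autophagy list, 8 of 34 genes rose and 2 fell (median 0.17). Atg13, a subunit of the ULK kinase complex that starts autophagy, went from 10.66, 10.78 and 10.68 to 12.13, 12.22 and 12.19 (1.47, adjusted p = 7.08e-06). Map1lc3a, which encodes a protein that coats the autophagosome membrane, rose by 1.38, and Wdr45 and Wipi1, whose products bind phosphoinositides on the forming membrane, by 1.35 and 1.29. The fallers were the protease gene Atg4c (-1.08) and Sqstm1, the cargo receptor p62 (-0.99), which read 14.69, 14.79 and 14.54 in DMSO and 13.86, 13.67 and 13.52 in rapamycin.

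Of 31 FoxO targets, 11 rose against a background of 6.18% and 4 fell (median 0.47). Txnip, an inhibitor of glucose uptake and of thioredoxin, averaged 12.15 ± 0.14 (SD, n = 3) in DMSO and read 14.78, 14.55 and 14.95 in rapamycin, 6.08-fold higher (adjusted p = 3.13e-07 by limma), and Foxo1 itself rose by 0.91 (adjusted p = 0.000269). Fbxo32, an E3 ligase of muscle atrophy, rose by 2.17 and the pseudokinase gene Trib2 by 1.75, while Trim63, another atrophy ligase, fell from between 7.77 and 8.05 to between 6.28 and 6.41 (-1.51), as did Gadd45a (-1.28), Bnip3 and Klf15 (-1.14). Fbxo32 in DMSO (5.98 to 6.34) and Trim63 in rapamycin lay below the array medians, so the sizes of their changes are uncertain. The FoxO element GTAAACA, held by 3.78% of all promoters, matched in 1 of the 6 promoters available for the 11 risers (Trib2) and in 1 of 4 for the fallers (Trim63).

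Among 32 growth factor receptors and adaptors of insulin signaling, 6 rose, 1 fell and 25 were not called (median 0.08, with 18 changes above 0 and 14 below). The receptor gene Igf1r read 10.62, 10.57 and 10.32 in DMSO and 12.46, 12.44 and 12.33 in rapamycin, 3.75-fold higher (1.91, adjusted p = 3.94e-06). Irs2 and Irs1, adaptors that couple the insulin and IGF receptors to PI3K, rose by 1.24 and 0.69, and Axl, a receptor tyrosine kinase, by 0.89. Insr (0.10) and Pdgfrb (0.39) were not called, and Egfr (1.99-fold higher, adjusted p = 0.0198) lost its call without DMSO replicate 1 or 3 or rapamycin replicate 1, with log2 changes between 0.72 and 1.30 when single arrays were left out. Kdr, the VEGF receptor 2, was the faller, from 13.64, 13.52 and 13.33 to 11.52, 11.71 and 11.78 (-1.83). Of the IGF system, Igfbp7 and Igfbp6 rose by 0.87 and 0.86 and Igfbp5, Igf1 and Igfbp4, which encode a growth factor and its binding proteins, fell by 1.73, 1.04 and 0.66.

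In oxidative phosphorylation 14 of 55 genes fell and 41 were not called (median -0.47), with 53 changes below 0. Cyc1, a subunit of complex III, went from 13.15, 13.20 and 13.15 to 11.99, 12.06 and 12.10 (-1.12, adjusted p = 1.62e-05), the complex I gene Ndufs8 fell by 1.07 and the complex III gene Uqcrfs1 by 0.97. Of 30 proteasome genes 11 fell (median -0.53), led by Psmc5 (-1.28), Psmb6 (-0.97) and Psmc6 (-0.95). In fatty acid oxidation and fuel choice 6 of 30 genes fell (median -0.27), among them Fabp3, a fatty acid carrier (-1.54), the nuclear receptor gene Ppard (-1.20) and Echs1, an enzyme of β-oxidation (-0.90).

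Of 19 antioxidant genes under the factor NRF2, 7 fell (median -0.33), a count that dropped to 4 without DMSO replicate 2. Beside Hmox1, the cystine importer gene Slc7a11 read 10.60, 10.16 and 10.47 in DMSO and 9.48, 9.30 and 9.26 in rapamycin (-1.06), and Me1, which makes NADPH, fell by 0.90. Among 25 chaperones and other genes of the endoplasmic reticulum, the chaperone gene Hyou1 fell by 0.91, Dnajb9, another chaperone, rose by 0.66, and Creld2 fell by 0.65, a call that ended without DMSO replicate 3 (-0.57).

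Of 47 genes of ribosome biogenesis 14 fell and 33 were not called, and 44 changes were below 0 (median -0.40). Rrp9, a component of the U3 particle that processes ribosomal RNA, read 10.72, 10.91 and 10.41 in DMSO and 9.85, 9.96 and 9.71 in rapamycin (-0.84, adjusted p = 0.0072). Utp18 and Utp15 of the same processing machinery fell by 0.82 and 0.75, dyskerin (Dkc1) by 0.78 and Rrn3, which recruits RNA polymerase I, by 0.73. By limma 0 of 66 cytosolic ribosomal protein genes passed both thresholds, although 22 had an unadjusted p under 0.05 with a positive change and 1 with a negative change (28 and 1 by the per-gene unequal-variance test), and the median was 0.19. The largest changes were those of Rpl29 (0.53) and Rpl24 (0.51), which passed the fold threshold without DMSO replicate 2 (0.61 each). Of 39 translation factors 5 fell and 1 rose, the guanine exchange factor subunit gene Eif2b5 by -0.87 and the initiation factor subunit gene Eif3f by 0.66.

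Few genes of the cell cycle passed both thresholds. Most changes were still below 0, in 32 of 41 genes of DNA replication and 31 of 37 of mitosis. Of 41 genes of DNA replication 2 were called, both lower, below the background share, and the median was -0.17; these 2, Gins1 (-0.65) and Rfc5 (-0.61), lost their calls without rapamycin replicate 3 (-0.55) and rapamycin replicate 2 (-0.53), and the count was 4 without DMSO replicate 2 and 5 without rapamycin replicate 1. Of 37 genes of mitosis 4 fell against a background of 5.96% (median -0.24), or 8 without DMSO replicate 3. With no fold threshold, 10 replication and 14 mitosis genes were lower at an adjusted p under 0.05 (limma), and 0 were higher. By that rule 2143 of all 23188 probe sets were lower and 2033 higher. The mitotic kinase gene Aurka read 12.62, 12.44 and 12.65 in DMSO and 11.40, 11.23 and 11.51 in rapamycin (-1.19, adjusted p = 1.9e-05), and Cdc20, an activator of the anaphase-promoting complex, fell by 0.98.

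Among D and E cyclins, their kinases and the inhibitors of these kinases, 3 of 18 genes rose. Cyclin D1 (Ccnd1) read 13.32, 13.38 and 13.24 in DMSO and 14.31, 14.29 and 14.25 in rapamycin (0.97, adjusted p = 2.32e-05). The inhibitor gene Cdkn1a (p21) and the kinase gene Cdk6 rose by 0.90 and 0.80. Ccne2 changed by 0.54, under the fold threshold, and Ccnd3 (-0.17) and Cdkn1b, the gene of p27 (0.05), were not called.

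Of 29 immediate early genes, which cells switch on within minutes of a growth stimulus, 15 rose and 1 fell (median 0.82). Junb, a subunit of the factor AP-1, went from 13.20, 13.19 and 13.44 to 14.85, 14.77 and 15.29 (1.70, adjusted p = 0.00022), while Jun changed by 0.36 (adjusted p = 0.294). Myc, a driver of growth, read 13.26, 13.25 and 13.67 in DMSO and 14.77, 14.90 and 14.88 in rapamycin (1.46, adjusted p = 2.36e-05). Klf2 rose by 2.55, the matrix signaling gene Ccn1 by 1.74, the mRNA decay factor gene Zfp36 by 1.54 and the phosphatase gene Dusp1 by 1.31; Atf3 was the member that fell. With Myc, its antagonist Mxd1 rose by 0.76.

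Of 18 ERK feedback genes 11 rose (median 0.75). Dusp6, the phosphatase that switches off ERK, went from 12.48, 12.31 and 12.55 to a mean of 15.08 ± 0.082 (SD, n = 3), a 6.19-fold rise (2.63, standard error 0.11, adjusted p = 1.84e-07). Spry2, which dampens receptor tyrosine kinase signaling, rose by 1.45. Ligands of the EGF receptor family rose as well: Tgfa from 12.96, 12.55 and 12.95 to 14.83, 14.68 and 14.79 (1.95, adjusted p = 1.41e-06), Areg by 1.86, Hbegf by 1.69 and Ereg by 0.97. Areg and Ereg gave low signals in DMSO, at 4.72 to 5.73 and 5.01 to 5.33, below the array medians.

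Targets of TGF-β and YAP formed the list with the highest share of risers, 16 of 24 (median 0.87). Tagln, an actin-binding protein of smooth muscle, read 11.66, 11.77 and 11.63 in DMSO and 14.18, 14.13 and 14.20 in rapamycin (2.48, standard error 0.09, adjusted p = 5.31e-08). Thrombospondin 1 (Thbs1), a matrix protein that activates latent TGF-β, went from 15.06, 15.20 and 15.16 to 17.06, 17.25 and 17.22 (2.04). Ccn1 and Ccn2, secreted targets of YAP, rose by 1.74 and 1.31, the YAP-binding protein gene Amotl2 by 1.37 and Ltbp2, which binds elastic fibers, by 1.68.

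Matrix genes rose more often than they fell, with 11 of 31 collagens and matrix proteins higher and 1 lower (median 0.41). Elastin (Eln) read 8.45 at the lowest and 8.67 on average in DMSO and 11.61, 11.58 and 10.82 in rapamycin (2.67, adjusted p = 1.68e-05). Periostin (Postn) rose from between 7.08 and 7.31 to between 9.08 and 9.12 (1.87), Col14a1 by 1.78, the basement membrane gene Nid2 by 1.27 and fibronectin (Fn1) by 0.98, while Col15a1 fell by 1.21. Of 24 metalloproteinases, plasminogen activators and inhibitors 4 rose and 5 fell. Adamts1, a protease that cleaves proteoglycans, went from 10.29, 10.20 and 10.05 to 12.87, 12.83 and 12.39 (2.52) and the urokinase receptor gene Plaur rose by 1.89, whereas Mmp14, the membrane-bound collagenase, fell from between 14.08 and 14.24 to between 12.72 and 12.93 (-1.36), Mmp19 by 1.28 and urokinase (Plau) by 0.88. Mmp2 changed by -0.34 and was not called.

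Of 15 integrin chains 6 rose and 1 fell. Itga6 and Itgb4, the pair that binds laminin, went up by 1.59 (from 11.37, 11.22 and 11.32 to 12.85, 12.81 and 13.02) and by 1.67 (from 4.69, 5.23 and 4.63 to 6.44, 6.81 and 6.33), and Itga7 and Itgb5 by 1.23 and 1.20. The DMSO signals of Itgb4 were below the array medians, so the size of its rise is uncertain. Itga1, a collagen-binding chain, fell from 8.23, 8.18 and 8.30 to 7.62, 7.50 and 7.64 (-0.65). Of 35 junction genes 1 was called, the intestinal cadherin gene Cdh17 (1.05). Among factors of epithelial-mesenchymal transition, Snai1 rose from 9.30, 9.49 and 9.41 to 10.07, 10.19 and 10.20 (0.75, adjusted p = 0.00204), while Snai2 changed by -0.39, under the fold threshold.

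**Figure D3:**
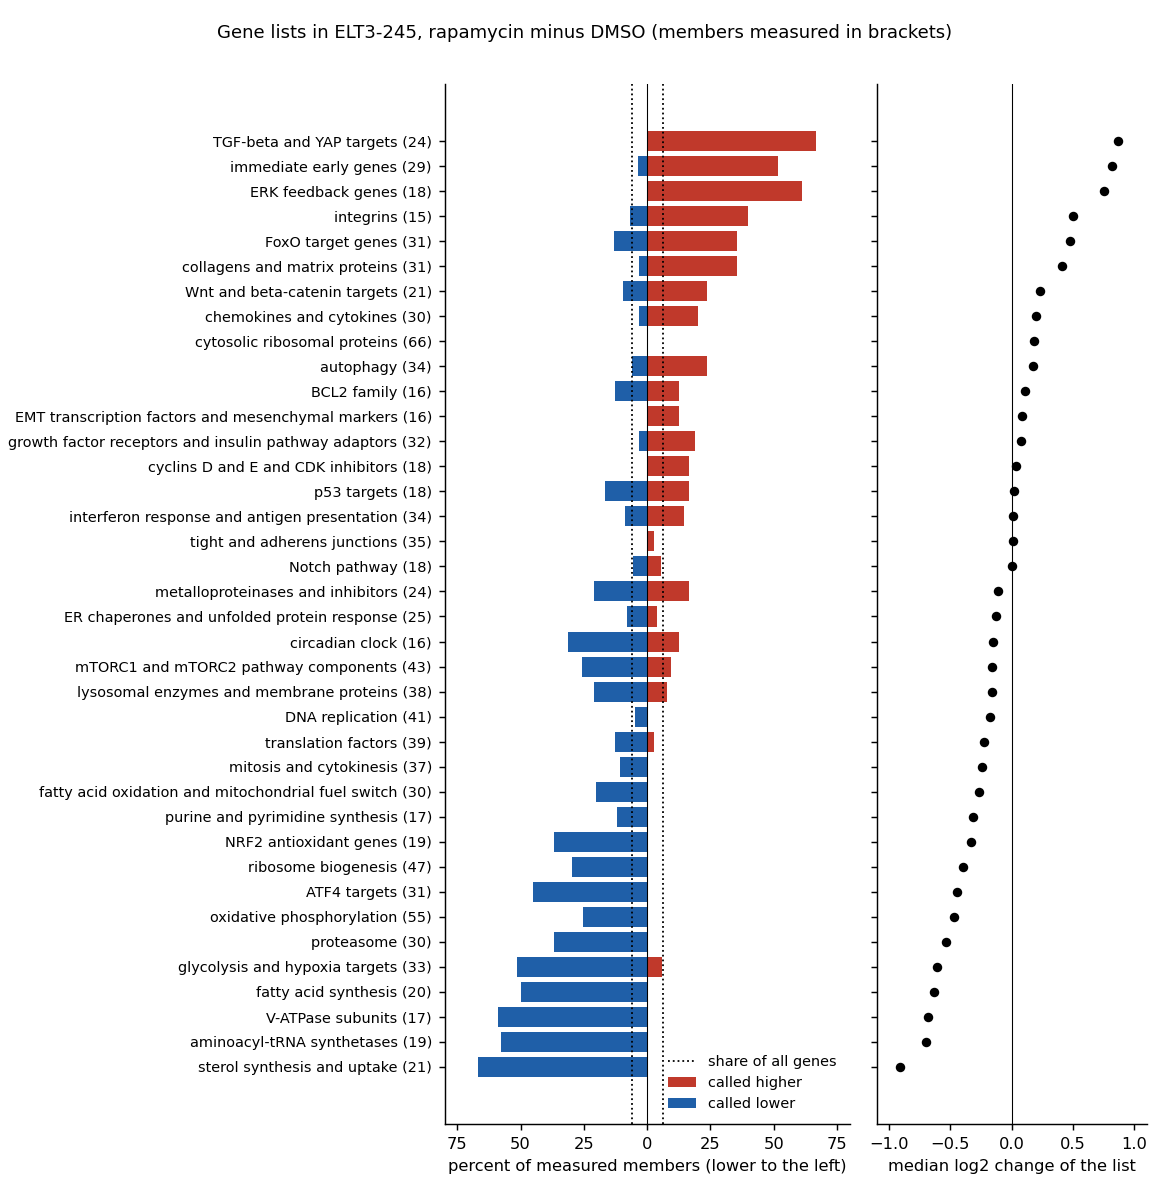
Left, percent of the measured members of each gene list that were called higher (red, to the right) or lower (blue, to the left) under rapamycin in ELT3-245, with dotted lines at the shares of all genes, 6.18% and 5.96%; right, the median log2 change of each list. Lists are sorted by that median, from sterol synthesis (-0.91) at the bottom to TGF-β and YAP targets (0.87) at the top; marker lists and lists with under 14 measured members are left out.

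Smooth muscle genes fitted the labelled origin of the line only in part. Des (16.60 to 16.89) and Acta2 (14.32 to 14.99) were bright on all 6 arrays, whereas Myh11, Cnn1, Mylk and Myocd, 4 of 16 measured markers, lay below the median of every array. Of these 16 markers 4 rose, Tagln, Synpo2 (1.30), Smtn (0.80) and Tpm2 (0.65), and the mean log2 level of the list went from 10.36 to 10.49 in DMSO to 10.88 to 10.92 in rapamycin. Among 12 fibroblast markers Mfap5 (1.16) and Thy1 (0.83) rose, and the mean level of that list went from 13.19 to 13.31 in DMSO to 13.61 to 13.69 in rapamycin. The part of these shifts in the results on matrix and TGF-β genes was not tested.

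Markers of other cell types were mostly dim. Of 16 leukocyte markers 12 lay below the median of all 6 arrays, Ptprc, the gene of CD45, among them at 3.81 to 4.35. Csf1r and Cd68 (-0.81) fell, Cd14, a coreceptor for endotoxin, rose from between 11.56 and 11.82 to between 12.94 and 13.49 (1.51), and the mean level of the list was 6.04 to 6.12 in DMSO and 5.88 to 5.91 in rapamycin. Of 20 epithelial markers 16 lay below the median of all 6 arrays, Epcam (3.85 to 4.70) and Cdh1 (4.57 to 5.08) among them, and 4 rose, including the desmosome genes Pkp2 (1.02) and Ppl (0.98). Of 11 endothelial markers 9 lay below it, including Cdh5 and Vwf; Flt1 rose by 0.69, the bright Kdr fell by 1.83 as given above, and Pecam1 fell by 0.68 from low signals, a call that ended without any of the 6 ELT3-245 arrays or without DMSO replicate 2 or rapamycin replicate 2 of ELT3 (highest adjusted p = 0.166).

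More than 1 in 2 probe sets called in ELT3-245 had the same call in ELT3, and ELT3 had more calls. In ELT3, 1201 genes with a symbol rose (7.98%) and 1496 fell (9.95%). The lines share no arrays, and over all probe sets their changes correlated at 0.578, a description across probe sets that are not independent of each other. Of the 1310 probe sets that rose in ELT3-245, 766 also rose in ELT3, 58.5% of these and 44.2% of the ELT3 risers. Of the 1155 that fell, 653 also fell in ELT3, 56.5% of these and 33.3% of the ELT3 fallers. Opposite calls were found for 7 of the risers and 23 of the fallers. Where a gene was called in 1 line only, that by itself does not show that the lines differed, which was tested as the difference between the responses (the interaction of line and treatment).

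This difference was called for 981 probe sets, 4.23% of all, and for 738 genes with a symbol, 4.91%. In 503 of the probe sets the change in ELT3-245 was the more positive and in 478 the more negative. Of the probe sets called in ELT3-245, 202 of the risers and 179 of the fallers (15.4% and 15.5%) also carried a called difference. The sterol list had a called difference in 1 of 21 genes, while in DNA replication 10 of 41 genes differed, all with the more positive change in ELT3-245. In DNA replication 27 genes fell in ELT3 and 2 in ELT3-245, with medians of -0.73 and -0.17. Ribosome biogenesis differed in 11 of 47 genes (35 and 14 fell), mitosis in 6 of 37 (26 and 4 fell) and the ATF4 targets in 9 of 31 (21 and 14 fell), 8 of these 9 with the more positive change in ELT3-245. More positive changes in ELT3-245 also prevailed among the called differences of matrix proteins (6 of 31 more positive, 1 more negative), chemokines and cytokines (6 of 30 and 1) and interferon genes (6 of 34 and 1). The same held for cyclins and their inhibitors (5 of 18 and 1), TGF-β and YAP targets (4 of 24 and 1), purine and pyrimidine synthesis (4 of 17 and 0) and Wnt targets (4 of 21 and 2). Some lists mostly differed the other way, with the more negative change in ELT3-245. These were metalloproteinases and inhibitors (7 of 24 more negative, 2 more positive) and growth factor receptors and adaptors (7 of 32 and 1). The IGF system (4 of 12 and 0) and smooth muscle markers (4 of 16 and 1) were further examples.

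**Figure D4:**
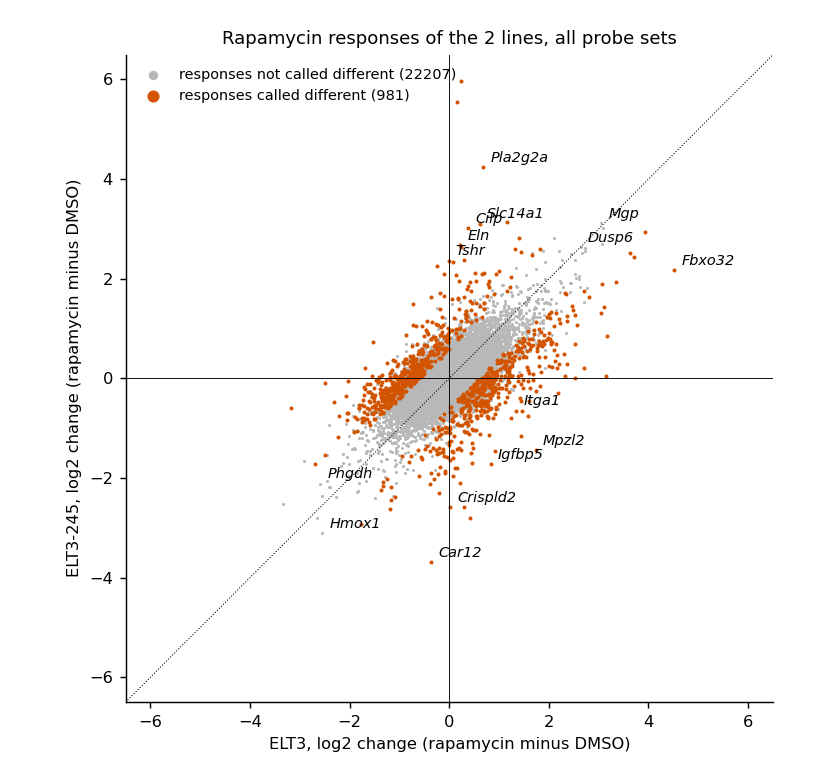
Log2 change under rapamycin in ELT3-245 (vertical axis) against that in ELT3 (horizontal axis), 1 point per probe set, with the 981 probe sets whose responses were called different in orange and equal responses on the dotted line. Hmox1, Dusp6 and Mgp lie near that line, while Pla2g2a, Car12, Cilp and Crispld2 changed mainly in ELT3-245.

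Among named genes called in ELT3-245, the largest fitted difference was that of Pla2g2a, which encodes a secreted phospholipase A2. It rose in ELT3-245 from 4.72, 4.01 and 4.76 to 8.77, 8.46 and 8.99 (4.24) and in ELT3 by 0.69, and these responses differed by 3.55 (adjusted p = 0.000139). Car12, a membrane carbonic anhydrase that exports acid, fell from 8.81, 8.74 and 8.34 to 5.35, 4.89 and 4.58 in ELT3-245 and changed by -0.36 in ELT3 (difference -3.33, adjusted p = 0.00013). Crispld2, a secreted protein, fell by 2.59 in ELT3-245 and changed by 0.01 in ELT3 (adjusted p of the difference = 0.00013), and the olfactory receptor gene Or2h15 fell by 2.80 and changed by 0.41 (difference -3.21). In ELT3 the arrays of Car12, Crispld2 and Or2h15 lay between 4.04 and 5.39, below the array medians in both treatments, where a further fall could hardly be read. The DMSO signals of Pla2g2a and the rapamycin signals of Car12 and Or2h15 in ELT3-245 were as low, so that the sizes of these changes and their order are uncertain.

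Rises mainly in ELT3-245 were those of Cilp, a cartilage matrix protein (3.01 against 0.38 in ELT3, difference 2.63), Slc14a1, a urea transporter (3.10 against 0.61, difference 2.49), elastin (Eln, 2.67 against 0.22, difference 2.45), Map3k7cl (2.63 against 0.23, difference 2.40) and Tshr, the thyrotropin receptor (2.37 against -0.02, difference 2.38). Their adjusted p-values for the difference ran from 0.00113 for Slc14a1 to 0.0131 for Tshr. Of the study's pathway genes, Ccnd1 rose more in ELT3-245 (0.97 against 0.30, difference 0.67, adjusted p = 0.0166), as did the Wnt feedback gene Axin2 (1.56 against 0.41, difference 1.15, adjusted p = 0.017). Ccne2 differed by 0.63 (0.54 against -0.08, adjusted p = 0.0214), a call that ended without DMSO replicate 1 or rapamycin replicate 1 or 2 of ELT3-245 or DMSO replicate 1 of ELT3 (highest adjusted p = 0.0558). Irs1 rose less in ELT3-245 (0.69 against 1.90, difference -1.21, adjusted p = 0.00285). For Irs2 the values were 1.24 and 1.96 (difference -0.72, adjusted p = 0.0229), with no call left without DMSO replicate 3 or rapamycin replicate 1 or 2 of ELT3-245, or DMSO replicate 1 or 2 or rapamycin replicate 2 of ELT3 (highest adjusted p = 0.063).

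Some genes moved in opposite directions. Mpzl2, an adhesion molecule of epithelia, fell in ELT3-245 from 12.77, 12.77 and 12.86 to 11.34, 11.34 and 11.38 (-1.44), and rose in ELT3 by 1.74, a difference of -3.18 (adjusted p = 3.38e-05). Igfbp5, which binds IGFs, fell from 12.60, 12.47 and 12.52 to 10.64, 10.87 and 10.89 and rose by 0.83 in ELT3 (difference -2.56, adjusted p = 0.0003). Duoxa2, a maturation factor of dual oxidase, fell by 1.17 and rose by 1.44 (difference -2.61), and Gem, a small GTPase, fell by 1.47 and rose by 0.91 (difference -2.38). The selenium transporter gene Selenop (-0.81 and 1.23, difference -2.04), the carbonic anhydrase gene Car3 (-0.79 and 0.87, difference -1.66) and Cyp27a1, a sterol hydroxylase (-1.13 and 0.79, difference -1.92), ran the same way. Zfp772 was the reverse, at 0.87 and -0.87 (difference 1.74, adjusted p = 0.0166), but its call in ELT3-245 (adjusted p = 0.0259) ended without any of the DMSO arrays or without rapamycin replicate 1 or 3 (adjusted p between 0.0541 and 0.107).

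**Figure D5:**
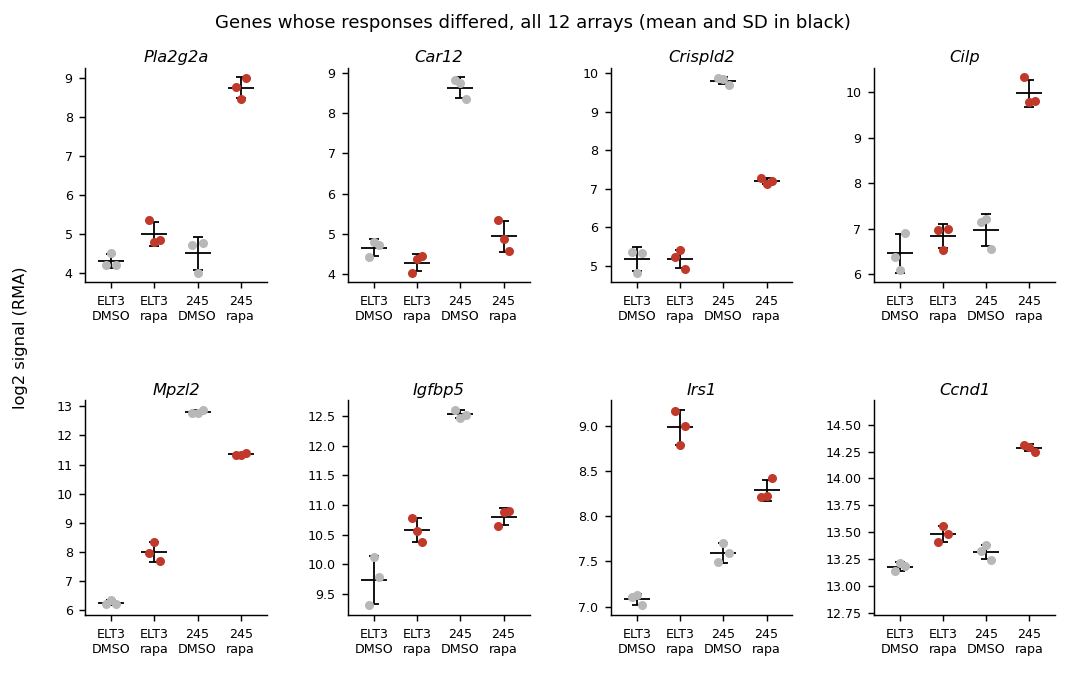
Log2 signal (vertical axes, each on its own range) of 8 genes whose rapamycin responses differed between the lines, in the 3 DMSO (gray) and 3 rapamycin (red) arrays of ELT3 and of ELT3-245 (marked 245); black lines are the mean and SD. Pla2g2a, Cilp and Ccnd1 rose more in ELT3-245, Irs1 rose less, Car12 and Crispld2 fell in ELT3-245, and Mpzl2 and Igfbp5 moved in opposite directions.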

How the data were processed

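Total RNA of ELT3 and ELT3-245 cells, 3 cultures per line and treatment, was hybridised to rat Clariom S arrays, 12 in all. The authors turned the scans into the deposited log2 values with RMA (no version stated), which corrects background, normalizes arrays to each other and summarizes probes to 1 value per probe set, so that small signals are compressed and depth has no meaning; the number of arrays limits precision. The deposited values ran from 2.56 to 18.56, every value column matched a sample, and no array was left out. The annotation of the array gave 15049 of 23188 probe sets 1 gene symbol, 4 more were named through the paper's supplementary tables, and 8135 stayed unnamed but were tested. For 10 symbols with several probe sets the one with the highest mean stands for the gene. The digits in a probe set name give its chromosome, on a build not named in the sources used here.

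The comparisons were fitted with limma 3.58.1 in R 4.3.3, as 1 model of all 12 arrays with a mean for each of 4 groups (8 residual degrees of freedom, 3.91 from the prior), which gave the response of each line and their difference. Exact permutation of 3 arrays against 3 cannot go below a two-sided p of 0.1, so single genes are described by overlap beside the limma values. The calculation was checked on simulated data. Gene lists (48) were described by counts and medians with no set test; the members, lists and thresholds were chosen with earlier results of these data known. Genes were named by rule: the 15 bright probe sets that rose most and the 15 that fell most, up to 6 called members of each list with those that moved against it, a panel of mTOR, lipid, cycle and Wnt genes, the 12 largest differences between the lines and the 8 largest opposite changes; exceptions are stated. Promoters came from RefSeq (GRCr8) and were searched on both strands for 6 motifs, spelled out in the results; the E-box lies inside the CLEAR element. Replicate numbers were not treated as pairs. The alternatives were quantile normalization, median centring, a filter on dim probe sets, named probe sets only, moderation with an intensity trend or made robust, weights for the arrays, a block for the replicate number, only the 6 ELT3-245 arrays, other fold thresholds, limma treat, a per-gene unequal-variance test, another choice of probe set per gene and leaving out each array. Plots were made with Python 3.11.15 and Matplotlib 3.10.9.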

Additional observations from a re-analysis of the deposited data

Results flagged for a closer look

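The responses of ELT3-245 and ELT3 to rapamycin differed by the test of the difference itself (limma interaction, adjusted p under 0.05 and at least 1.5-fold) in 981 probe sets. On the log2 scale, with positive values where ELT3-245 changed upward relative to ELT3, the named genes were flagged by this test with Pla2g2a at 3.55, Cilp at 2.63, Slc14a1 at 2.49, Eln at 2.45, Map3k7cl at 2.40, Tshr at 2.38, Zfp772 at 1.74, Axin2 at 1.15, Ccnd1 at 0.67 and Ccne2 at 0.63. In the other direction were Car12 at -3.33, Or2h15 at -3.21, Mpzl2 at -3.18, Duoxa2 at -2.61, Crispld2 at -2.60, Igfbp5 at -2.56, Gem at -2.38, Selenop at -2.04, Cyp27a1 at -1.92, Car3 at -1.66, Irs1 at -1.21 and Irs2 at -0.72. The unnamed probe sets TC0500004052.rn.2 and TC1000000671.rn.2 differed by 5.73 and 5.41, and TC0300004616.rn.2 and TC0300000259.rn.2 by -2.88 and -1.43. The groups hold 3 arrays each, so no single array was tested as standing apart from its group. The calls of the difference for Irs2 and Ccne2 ended when certain single arrays were left out, with adjusted p-values up to 0.063 and 0.0558, while the other 20 genes listed here and the 4 unnamed probe sets kept theirs without any 1 array.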

How the results depend on the processing

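The main counts were 1310 probe sets higher and 1155 lower in ELT3-245 and 981 with a difference between the lines' responses. No named gene called in ELT3-245 changed direction under the alternatives run. With a 2-fold threshold the counts were 449, 340 and 449, with no fold threshold 2033 and 2143 (difference 1008), with limma treat against 1.5-fold 286, 205 and 72, and with the per-gene unequal-variance test 441 and 368. Leaving out each array in turn gave 1169 to 1344 higher, 1049 to 1181 lower and 534 to 893 differing; the difference count was 568 without ELT3-245 DMSO replicate 1, 631 without DMSO replicate 3, 583 without rapamycin replicate 1, 568 without rapamycin replicate 2 and 534 without ELT3 DMSO replicate 2, and the cause was not tested. Median centring gave 1157 and 1335. With the replicate block the counts were 1316, 1153 and 825. Deviations of same-numbered DMSO and rapamycin arrays of ELT3-245 correlated at 0.0254, 0.0879 and 0.175 for replicates 1, 2 and 3. With the rapamycin arrays of other numbers, these DMSO arrays correlated at -0.0709 to 0.0514, -0.122 to 0.0446 and -0.127 to -0.0636. Whether arrays of the same number shared a batch was not tested, and the numbers were not taken as pairs. Choosing the probe set of largest spread for a gene left 929 and 897 genes called and 737 with a difference. Of 257 named genes called in ELT3-245, 226 kept their call without any 1 array and 130 kept it in every alternative other than the 2-fold threshold and treat. Precision is limited by 3 arrays per group, and probe sets below the array medians read small changes poorly.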

Other observations

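Of 30 chemokines, cytokines and related genes 6 rose, 1 fell and 23 were not called (median 0.20), beside 6.18% of all genes that rose and 5.96% that fell in ELT3-245. Ptgs2, the inducible cyclooxygenase, went from 10.15, 10.26 and 10.01 in DMSO to 11.77, 11.90 and 11.99 in rapamycin (1.75, adjusted p = 1.05e-06 from limma), the chemokine gene Cxcl12 rose by 1.52, the macrophage growth factor gene Csf1 by 1.38 and the adhesion gene Icam1 by 1.36, while Cxcl6 fell by 1.12. Of 34 interferon and antigen presentation genes 5 rose, 3 fell and 26 were not called, with Isg20 (1.43), Gbp5 (1.09), Irf7 (1.06) and Cxcl10 (1.05) higher and Usp18, which removes the ubiquitin-like ISG15, lower (-1.48).

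The counts in this paragraph also stand beside 6.18% of all genes that rose and 5.96% that fell. Of 16 circadian clock genes 5 fell, 2 rose and 9 were not called. Bhlhe40, a repressor of clock genes, fell from 11.83, 11.65 and 11.60 to 9.42, 9.81 and 9.30 (-2.18), and the repressor gene Cry1 by 1.06, whereas Nr1d2, which encodes the nuclear receptor REV-ERBβ, rose by 0.78. In the BCL2 family the survival genes Mcl1 and Bcl2l1 rose by 0.75 and 0.79, and the death-promoting genes Bid and Bak1 fell by 1.19 and 0.69, 4 of 16 measured members. Of 18 p53 targets 3 rose and 3 fell, among them Cdkn1a and Phlda3 (0.81) higher and Gadd45a, Sesn2 and Ccng1 (-0.98) lower. In the Wnt list 5 of 21 genes rose and 2 fell, Axin2 and Lef1 (1.08) higher and Ephb2 (-1.11) and Notum (-0.98) lower. In the Notch list 1 of 18 rose, Notch2 (0.89), and 1 fell, Rfng (-0.91), both close to the shares of all genes. Of the changes in that list 9 were above 0 and 9 below. No explanation of these values was tested.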
